A study of Caenorhabditis elegans with 2 samples.

Results

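Small ribosomal subunit protein genes of Caenorhabditis elegans were taken as the protein-coding genes with a symbol of rps- and a number, together with ubl-1, in the Ensembl annotation of build WBcel235. These are 32 of 19973 nuclear protein-coding genes. Anti-GFP chromatin immunoprecipitation and sequencing located peaks in 2 biological replicates of whole L4 larvae, the last larval stage. Both replicates were hermaphrodites of strain OP470, which carries unc-119(tm4063) on chromosome III and the transgene wgIs470, a stable insertion that expresses the homeodomain protein DUXL-1 with a C-terminal GFP-FLAG tag. The labels give the age as unknown and do not say whether the endogenous duxl-1 gene is intact. All samples form 1 group, so no conditions were compared, and the authors' control library is not analysed here, which means that the lists alone cannot tell DUXL-1 binding from DNA recovered for other reasons.

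The small ribosomal subunit carries the messenger RNA and reads its codons, and its proteins are made in matched amounts, since a subunit holds 1 copy of each. It has a head, which turns during translation, and a body with a platform, which hold the decoding site and the path of the messenger RNA. Many worm transcripts are trimmed at their 5′ end and joined to a spliced leader, so an annotated start can lie downstream of the place where transcription begins. DUXL-1 belongs to the homeodomain proteins, which bind DNA at short words rich in A and T.

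The 6 sequences here reach 50 bp to either side of the summits of 6 thresholded member peaks whose windows hold no coding sequence or untranslated region. Some stronger peaks, such as those of rps-19 and rps-20, are not shown. They are given because the results turn on peaks in this intergenic DNA. Each reads 5′ to 3′ on the strand of its gene, from the RefSeq sequence of WBcel235 (ce11), at chrIII:4475603-4475703 (plus) for rps-1, chrIII:5679099-5679199 (plus) for rps-12, chrIV:12391284-12391384 (minus) for rps-23, chrIV:1659226-1659326 (plus) for rps-28, chrIII:7179775-7179875 (minus) for rps-14 and chrIV:385561-385661 (plus) for rps-24. Capitals mark the words ACCGTA and ACGGTA on either strand, which overlap in TACGGTA and were picked after the sequences were seen.
rps-1: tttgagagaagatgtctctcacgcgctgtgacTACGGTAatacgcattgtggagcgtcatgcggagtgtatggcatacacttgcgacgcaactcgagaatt
rps-12: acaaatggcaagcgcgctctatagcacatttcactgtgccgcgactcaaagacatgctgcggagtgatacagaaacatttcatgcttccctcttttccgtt
rps-23: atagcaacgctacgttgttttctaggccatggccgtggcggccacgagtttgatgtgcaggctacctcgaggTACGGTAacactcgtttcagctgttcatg
rps-28: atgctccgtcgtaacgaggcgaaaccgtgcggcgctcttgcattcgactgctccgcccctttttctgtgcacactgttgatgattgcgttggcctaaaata
rps-14: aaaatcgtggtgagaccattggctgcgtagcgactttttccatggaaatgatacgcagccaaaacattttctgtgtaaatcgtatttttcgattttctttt
rps-24: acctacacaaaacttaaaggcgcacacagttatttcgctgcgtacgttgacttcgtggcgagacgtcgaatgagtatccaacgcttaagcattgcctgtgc

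A peak lay in the promoter window of 18 members, but only 8 of the 32 owned the start nearest to such a peak, against 5.1% of all genes. A summit from 1000 bp upstream to 200 bp downstream of an annotated start, in the list thresholded by the authors on the irreproducible discovery rate, was found for 18 of 32 genes (56.25%, 95% Wilson interval 39.3 to 71.8). The share among all nuclear protein-coding genes was 6.71%. In 16 of the 18 cases (88.9%) the peak overlapped one of the 1980 strongest candidates of both replicates, as many as the thresholded list holds. The like share of the 1340 genes with a thresholded promoter peak was 57.2%, and such genes were 3.84% of all genes. With 0.5 times as many top candidates the count was 8 of 18, and the like share over all genes was not counted. When only peaks above the median signal of the nuclear thresholded list were kept, 13 members and 3.83% of all genes had one. When background candidates of the pooled list were admitted, 31 of 32 members had one in the promoter, against 39.1% of all genes. No set test was made, and the Wilson interval covers counting error over genes only. The 18 genes rested on 18 distinct peaks.

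The signal is the value that the authors' peak caller gave each region, and it is not scaled between lists, so pooled values exceed those of the replicates throughout. Thresholded member peaks had a median pooled signal of 121 with a range from 65.4 to 374, where all 1068 thresholded promoter peaks had a median of 96.7. The lowest signal in the thresholded list was 65.0. The number of reads behind the lists is unknown.

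Among the proteins of the body and platform, 8 of 18 genes had a thresholded peak. The strongest of all members was rps-1, whose protein lies on the platform near the exit of the messenger RNA, with a pooled signal of 374 and signals of 215 in replicate 1 and 161 in replicate 2. Its peak (chrIII:4475563-4475749) ranked 61 of the 30000 pooled candidates and 55 and 78 in the replicates, so both libraries placed it among their strongest regions. rps-26, whose protein contacts the messenger RNA at the exit, had a pooled signal of 217, with 113 and 95.7 in replicates 1 and 2. rps-23, whose protein reaches into the decoding centre, had nearly the same pooled signal (216, with 114 and 90.1 in the replicates). Replicate 1 was the higher of the libraries for these 3 genes, in rank as well as in signal. rps-14, for a platform protein, had a pooled signal of 136 (55.0 and 63.1), and rps-0, for a protein that joins late in assembly, also 136 (60.3 and 67.4). The order of the replicates was opposite in these. rps-24, whose human counterpart is mutated in Diamond-Blackfan anemia, had a pooled signal of 103 (49.2 and 64.5), but its candidate in replicate 1 had its summit 261 bp from the pooled summit, against 12 bp in replicate 2. rps-30, whose mammalian counterpart is made as a fusion with a ubiquitin-like protein, had a pooled signal of 73.9 (40.8 and 36.9). rps-22, for a protein bound to ribosomal RNA in the body, had 68.8 (30.5 and 38.1), and ranked 2949 in replicate 1 and 1515 in replicate 2, so only the latter placed it among the top candidates.

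Proteins of the head had a thresholded peak at 10 of 14 genes. The division into head and body follows textbook structures and was made after the values were seen, so the 2 shares are a description. rps-19, the gene whose human counterpart was the first linked to Diamond-Blackfan anemia, had a pooled signal of 353, with 110 in replicate 1 and 231 in replicate 2. Of the 18 peaks it had the largest excess of replicate 2 over replicate 1 in signal (rank 49, against 185 in replicate 1). rps-12, for a protein of the beak of the head, had a pooled signal of 341, with 176 and 161 in the replicates. rps-20 had 299.6, with 162 and 124. Together with rps-1, these 3 were the members among the 100 strongest pooled candidates. rps-28, for a small protein near the exit of the messenger RNA, stood apart, with a pooled signal of 198 that came from 148 in replicate 1 and 46.4 in replicate 2, or ranks 95 and 1022.

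The other head genes had lower and closely spaced signals. rps-10, whose protein lies near the entry of the messenger RNA, had a pooled signal of 107 (42.7 and 48.2 in replicates 1 and 2). ubl-1, which encodes a ubiquitin-like protein fused to a head protein, had 99.5 (50.9 and 50.2). rps-17 had 95.6 (45.2 and 48.7). Signals are not scaled between the replicates, and the ranks in replicates 1 and 2 lay further apart. They were 1478 and 945 for rps-10, 1011 and 883 for ubl-1, and 1306 and 926 for rps-17. rps-29 had a pooled signal of 87.2 (42.7 and 40.6) and rps-15, whose protein has a tail that reaches towards the decoding site, had 82.9 (48.9 and 48.0). The order of these 5 genes was not the same in each library, since rps-15 was above rps-10 and rps-17 in replicate 1. rps-18, for a protein that touches the large subunit, was the last member inside the threshold, with 65.4 (29.4 and 24.9) and ranks of 3219 and 3916 in the replicates, so neither library alone placed it among its top candidates.

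**Figure D1:**
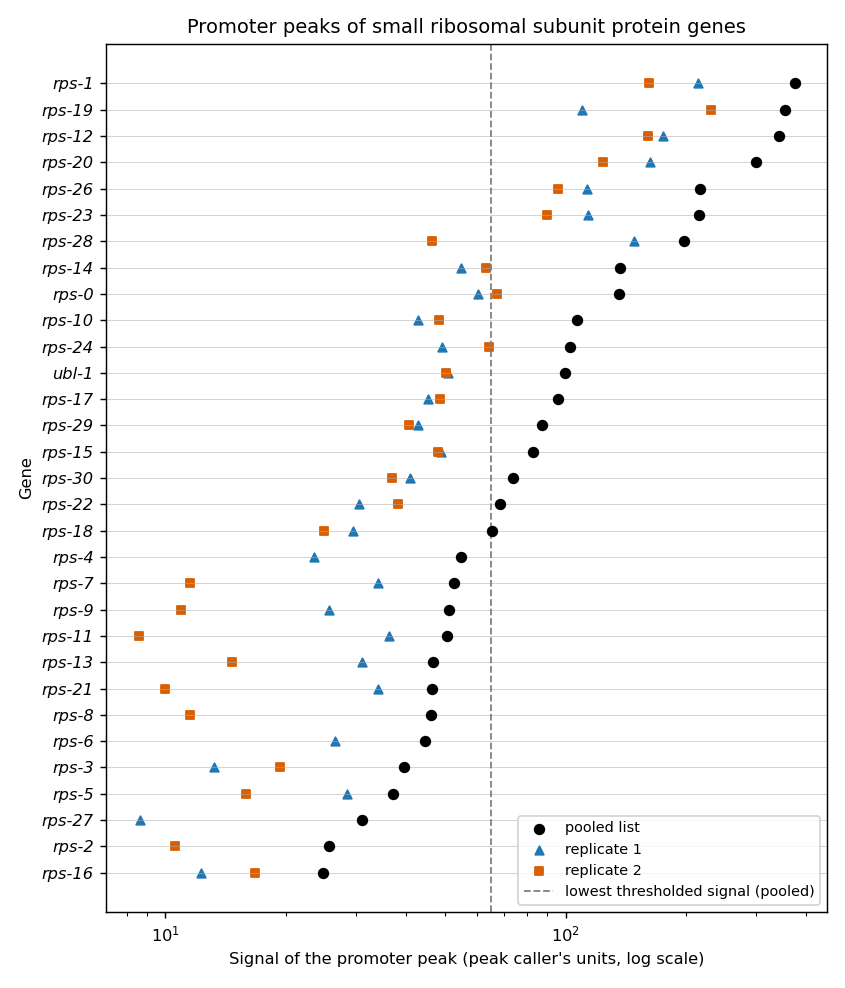
Signal of the promoter peak (log axis) of each of the 31 members with a pooled candidate, in the pooled list (black circles) and, for the strongest candidate that overlaps it, in replicate 1 (blue triangles) and replicate 2 (orange squares); the dashed line is the lowest pooled signal in the thresholded list (65.0). Under the line, replicate 2 is below replicate 1 for 6 of the 8 members with both. These signals are not scaled between lists, and the like count over all genes was not made.

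The other 14 members had no thresholded promoter peak, and 13 of them had a pooled candidate with a signal between 24.7 and 54.8. The first outside the threshold was rps-4, with a pooled signal of 54.8 (rank 2797), 23.6 in replicate 1 and no overlapping candidate in replicate 2. It was followed by rps-7 with 52.7 (34.0 and 11.6 in replicates 1 and 2) and rps-9 with 51.1 (25.6 and 10.9). No member had a pooled signal between those of rps-4 and rps-18, and the 3 genes were weak or missing in replicate 2. Over the 13 genes, 11 had an overlapping candidate in replicate 1, with a median rank of 4063, and 10 had one in replicate 2, with a median rank of 18487. None of these candidates was among the top 1980 of either replicate, although another region in the rps-11 window ranked 1975 in replicate 1. Like values over all genes with such signals were not counted, so the lower ranks in replicate 2 are no result about the members. The remaining genes in this range were rps-11, rps-13, rps-21, rps-8, rps-6 (whose protein is the classic substrate of S6 kinase), rps-3 (whose protein lines the entry of the messenger RNA), rps-5, rps-27, rps-2 and rps-16. rps-25 was the only member with no candidate in its promoter window in the pooled list.

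Across the 18 thresholded peaks the Spearman correlation of replicate 1 with replicate 2 signals was 0.833, and across the 26 members with a candidate in both it was 0.855. These are correlations across genes, which are not independent replicates. The thresholded list holds the 1980 highest signals of the pooled list, which combines both replicates. The 18 peaks were thus not chosen apart from the replicates, and the correlation is no independent support. Both libraries come from the same strain and protocol. The median distance of the summit from the pooled summit was 19 bp in replicate 1 and 13.5 bp in replicate 2. Only candidates that overlap the pooled peak were measured, and the pooled summit comes from both replicates together, so short distances are largely built in. The median rank of the 18 peaks was 624 in the pooled list, 938.5 in replicate 1 and 726.5 in replicate 2.

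**Figure D2:**
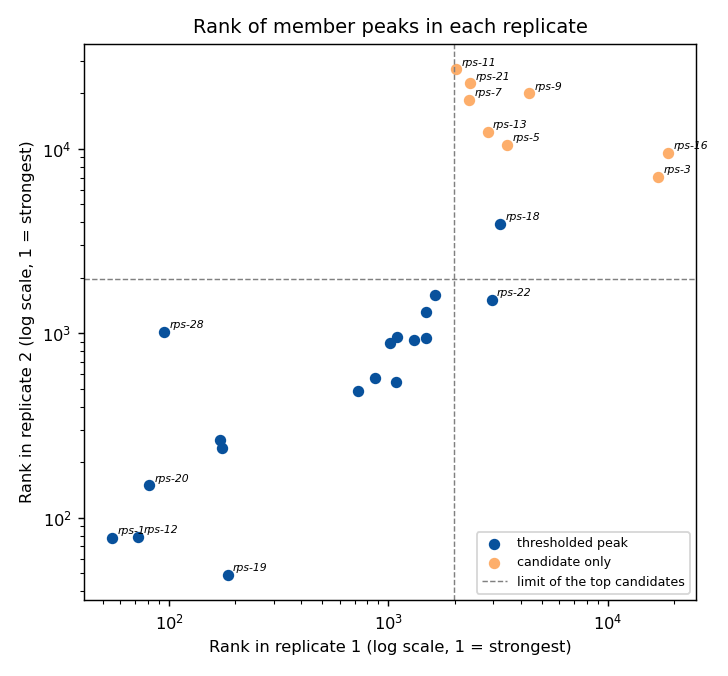
Rank of the member peaks in replicate 1 (x axis) and replicate 2 (y axis), both on log axes with 1 as the strongest, for the 26 members with an overlapping candidate in both; dashed lines mark rank 1980. The thresholded peaks (blue) follow one another from rps-1 to rps-18, with rps-28 and rps-19 off the line of equal ranks, and the candidates under the threshold (orange) lie beyond the limit in both replicates.

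All 18 thresholded summits lay upstream of the annotated start of their gene. The median distance was 278.5 bp upstream, and the quartiles lay at -358.5 and -238 bp. The nearest summit was that of rps-22 (-102) and the farthest that of rps-18 (-549). Over all genes with a thresholded promoter peak, 93.0% of summits were upstream, with a median of -238 bp. None of the 32 members had a thresholded summit inside the gene itself, and genes for tRNAs, snoRNAs and snRNAs were more than 100 bp from each of the 18 summits. The like shares over all genes were not counted, so neither statement is a result about the members. The peaks of the 9 strongest members were between 90 and 187 bp wide, and those of the other 9 were 280 bp wide, which is also the median width over all genes with such a peak.

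Most of these peaks stood between a member and a second gene. The promoter window of another protein-coding gene held the summit for 15 of the 18 genes (83.3%), against 45.7% of all genes with a thresholded promoter peak. Of the 25 large subunit genes with such a peak, 17 (68.0%) shared it in this way. In 3 cases the second gene encodes a protein of the large subunit. rps-14 shared its peak with rpl-36 (and with ndab-2), rps-10 with rpl-24.1 and rps-30 with rpl-39. Other partners were ifet-1, a relative of the translational repressor 4E-T, at rps-1, the 53BP1-related gene hsr-9 at rps-19, the kinetochore gene ska-3 at rps-12, ekl-4 at rps-20, the ciliary gene tmem-107 at rps-26 and dpm-3, for a subunit of dolichol-phosphate mannose synthase, at rps-23. Y41D4B.4 at rps-28, rbg-3 at rps-0, the synaptotagmin gene snt-2 at rps-29, F36A2.9 at rps-15, the DNA polymerase eta gene polh-1 at rps-22 and the translocon gene sec-61.A at rps-18 complete the set. Y41D4B.4 is on the same strand as rps-28, and the summit lay 834 bp upstream of its start and 415 bp upstream of that of rps-28. This peak is therefore not between the genes. ubl-1, rps-17 and rps-24 had their peaks to themselves.

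The nearest start was often that of the partner. Only 8 members (rps-1, rps-28, rps-14, rps-15, rps-22, rps-24, ubl-1 and rps-17) owned the start closest to their summit, 44.4% of the 18. Over all genes with a thresholded promoter peak the share was 76.0%, and over large subunit genes with one 68.0%. Among genes with a peak and a start on the other strand at most 1000 bp upstream, 4 of 14 members owned the nearest start. The like count over all genes was 252 of 501. Without such a neighbour the counts were 4 of 4 members and 766 of 839 of all genes. Some summits lay nearly as far from the member's start as from the partner's, as for rps-12 (149 bp to its own start and 144 bp to that of ska-3) and rps-23 (281 and 253 bp). At rps-0 the summit lay 24 bp upstream of rbg-3 and 349 bp upstream of rps-0, and at rps-29 it lay 80 bp upstream of snt-2 and 487 bp upstream of rps-29. At rps-18 it lay 134 bp downstream of the start of sec-61.A, inside that gene. The lists cannot tell which gene of a pair a peak belongs to.

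**Figure D3:**
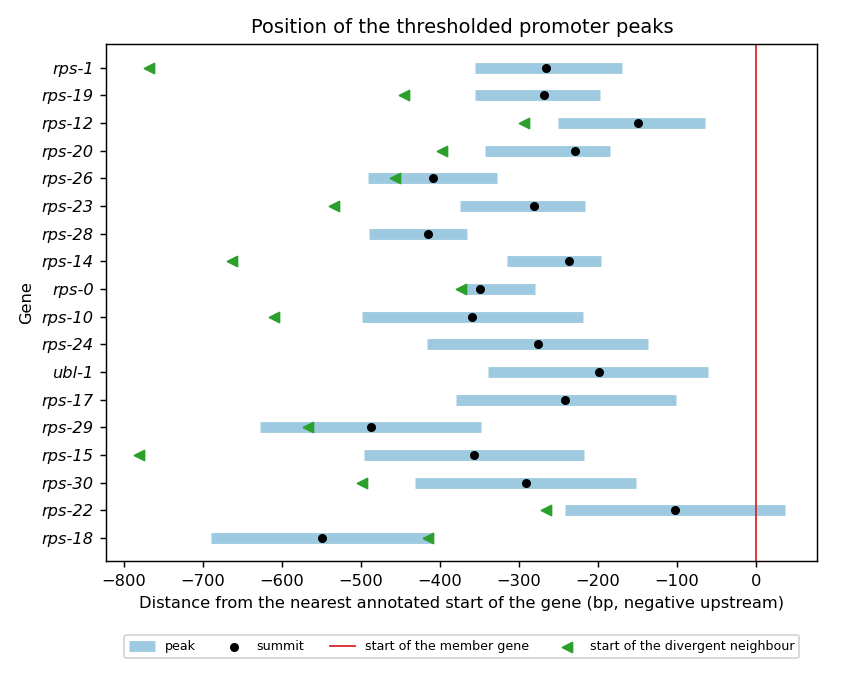
Peak extent (light blue bars) and summit (black dots) of the 18 thresholded member peaks, by distance in bp from the nearest annotated start of the gene (red line, negative upstream), with the start of the divergent neighbour within 1000 bp as a green triangle. All summits lie left of the red line, between -102 and -549 bp, and those of rps-0, rps-26 and rps-29 lie within 100 bp of the neighbour's start.

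The share of members with a peak differed with a divergent neighbour, but its direction depended on how a peak was given to genes. A gene on the other strand with its start at most 1000 bp upstream was present at 19 of the 32 members (59.4%). Over all nuclear protein-coding genes the share with such a neighbour was 17.7%, and over large subunit genes 58.8%. Of the 19 members, 14 (73.7%) had a thresholded promoter peak. Of the 13 members without such a neighbour, 4 had one (30.8%), namely rps-28, rps-24, ubl-1 and rps-17. The same shares over all nuclear protein-coding genes were 14.2% and 5.1%. Over large subunit genes they lay closer together, with 16 of 30 (53.3%) and 9 of 21 (42.9%). When a peak counted only for the gene with the nearest start, the direction turned, with 4 of 19 divergent members (21.1%) and 4 of 13 others (30.8%), against 7.14% and 4.66% over all genes. With the limit at 500 bp, peaks were in the window of 8 of 9 divergent members and 10 of the other 23, against 16% and 5.76% over all genes. Divergent members without a thresholded peak were rps-9 (next to lsm-1), rps-13 (nfx-1), rps-6 (usp-3), rps-3 (sna-3) and rps-27 (picd-1). This division was made after the values were seen, and a divergent promoter can hold the peak of either gene, so no test was made. rps-16 lies 109 bp downstream of fib-1 on the same strand, and fib-1 (fibrillarin, the methyltransferase of nucleolar RNA) had a thresholded peak 46 bp upstream of its start with a pooled signal of 109 (48.0 and 56.2 in replicates 1 and 2), while rps-16 itself had a pooled candidate signal of 24.7.

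Other gene lists gave a frame for these counts. Large subunit genes had a thresholded promoter peak at 25 of 51 (49.02%, Wilson interval 35.9 to 62.3), with a median signal of 116 and a maximum of 853 at rpl-3, so the highest signals of the ribosome were not at the small subunit. The intervals of the subunits overlap, and their difference was not tested. Genes for ribosome assembly, not only of the small subunit, and for synthesis of ribosomal RNA and its regulation had one at 10 of 30 (33.3%, 19.2 to 51.2). The strongest of these were larp-1, a regulator of ribosomal protein messenger RNAs in mammals (pooled signal 259, with 135 and 131 in replicates 1 and 2), and pro-1, a nucleolar assembly factor (164, with 84.4 and 83.6). The small subunit of the mitochondrial ribosome had one at 2 of 30 genes (6.67%, 1.85 to 21.3), which were mrps-7 and mrps-35, close to the share of all genes.

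**Figure D4:**
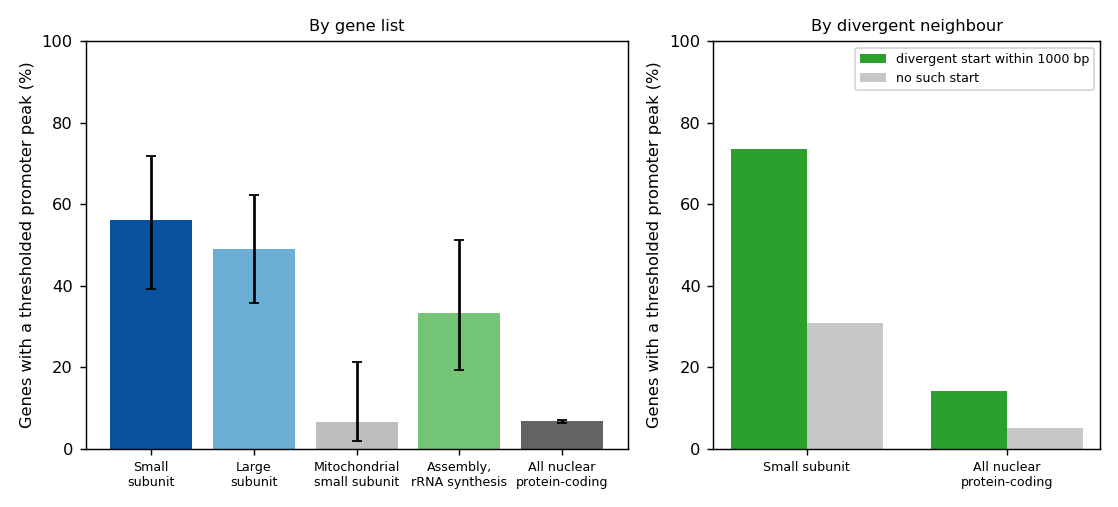
Left, percentage of genes with a thresholded promoter peak in each list, with 95% Wilson intervals as error bars; small subunit genes are at 56.25% of 32 and all nuclear protein-coding genes at 6.71% of 19973. Right, the same percentage for genes with a divergent start within 1000 bp (green) and without one (grey), at 73.7% and 30.8% for the small subunit and 14.2% and 5.1% for all genes; with peaks given to the nearest start only, the small subunit shares are 21.1% and 30.8%.

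Words of homeodomain proteins were searched first. Within 50 bp of the summit, on both strands, TAATTA was found in 1 of 18 member peaks, at rps-0, and TAATCA in none. TAATTA was held by 1.78% of the 1068 thresholded promoter peaks and TAATCA by 2.53%, below the 5.81% and 6.65% of windows of the same length centred 150 bp upstream of every protein-coding start. With 18 windows, counts of 1 and 0 are near these shares and are no result about the members. The TATA box word TATAAA was in 0 of 18 member peaks (4.40% of promoter peaks, 13.4% of start windows). GAGAGA was in 1, at rps-1, where 21.4% of promoter peaks held it. The E box CACGTG was in 1, at rps-29 (3.46% of promoter peaks), and GGGCGG in 1, at rps-28 (6.18%). CTTCTT and TGACGT were in none (7.68% and 5.71% of promoter peaks), and TTTCAG was in 2, at rps-23 and rps-18 (7.68%). A missing word says only that these letters are not in the window. The windows of the members had a median GC content of 49.01%, near the 47.5% of all promoter peaks, and start windows had 33.7%.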

How the data were processed

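Members and lists were chosen with earlier results of these data known. The authors deposited peak lists in builds ce10 and ce11, per the deposited README files, with a signal and a −log10 q value per region. Only the ce11 lists were used: the thresholded list of 1980 peaks, the pooled candidates and the candidates of each replicate (30000 regions each, background included). The sources used here give no aligner, no peak caller and no IDR threshold. The −log10 q value in the deposited lists is equal for all thresholded peaks and was not used. Per gene the promoter peak with the highest signal was taken, with Ensembl release 115 starts, and the strongest overlapping candidate (at least 1 bp) in each replicate. Regions were checked against the WBcel235 chromosome lengths, and the assignment of peaks to genes was tested on simulated data. Text names every member with a thresholded peak, the 3 next strongest and any without a candidate. Sequences are shown for at most 6 peaks, none on chromosome I. Wilson intervals cover counting error only. Scripts ran in Python 3.11.15 with scipy 1.17.1, pandas 2.3.3, numpy 2.4.6 and matplotlib 3.10.9.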

Additional observations from a re-analysis of the deposited data

How the results depend on the processing

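With 500 bp upstream to 100 bp downstream as the promoter, 17 members had a thresholded peak, and with each replicate's own top candidates also 17, against 18. Counting a peak only for the gene with the nearest start left 8. A stricter limit of 0.5 times as many top candidates per replicate left 8 of 16 members found in both, with no like count over all genes. The median rank of the strongest candidate was 1527, between 1413 and 1624 with single replicates, and 1243 with the narrower promoter. The cause was not tested for these changes. Median summit distance lay between -298 and -270 bp with single replicates. Of the divergent members, 14 had a peak, 8 with the limit at 500 bp and 4 with the nearest start only. The share of divergent members with a peak minus that of the others was 42.9 percentage points, and -9.72 with the nearest start only. The last 2 settings were picked once the values were known. Within 100 bp of the summit, TATAAA was in 1 member peak, GAGAGA and CTTCTT in 2 each, GGGCGG in 3 and TTTCAG in 6. Within 25 bp, GAGAGA was in 0 and TTTCAG in 1. No paired analysis was possible because there is 1 group and no test. Read depth is unknown, and with 2 libraries and no control the lists limit what can be said of single weak peaks.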

Other observations

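Of the 2080 words of 6 bases, ACCGTA was found in 7 of the 18 member windows that reach 50 bp to either side of the summit (rps-1, rps-20, rps-23, rps-10, ubl-1, rps-17 and rps-29), against 7.77% of the 1068 thresholded promoter peaks and 3.25% of start windows. The overlapping word ACGGTA was found in 6 (4.87% of promoter peaks), so that TACGGTA, as printed for rps-1 and rps-23, stood in 6 of 18. TACGGTA was in 4.03% of promoter peaks and 1.66% of start windows. AGAAAA and GAAAAA were also in 7 member windows, but in 23.4% and 24.9% of promoter peaks. The words were picked for their counts at these members, which are therefore no support. In the 22 large subunit peaks not shared with a member, which did not enter the choice, ACCGTA was found in 11 and TACGGTA in 6, and among the 13 member candidates under the threshold ACCGTA was found in 3. CGCTAC was in 6 member windows (rps-19, rps-23, rps-14, rps-10, rps-15 and rps-30) and in 3.18% of promoter peaks, with 3 of the 22 large subunit peaks. No factor is named for these words, and whether DUXL-1 binds them was not tested.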
